A study of Homo sapiens with 8 samples.

Results

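A guide pool was followed in KPL-1, an established line of human breast cancer cells, with a Cas9 nuclease that doxycycline switches on (iCas9). The control guides described here are the 200 guides of 5995 in the pool whose names begin with HGLibA, and they were found by that prefix alone. They made up 3.34% of the guides. Guides of a library that covers the whole human genome carry this prefix. That these are its non-targeting controls is background knowledge, and the table itself gives them no target. Their name numbers ran without a gap from 64384 to 64583, and no name occurred more than once.

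The pool, named sgKMT2pool, was counted in 1 library at day 14 of doxycycline, labelled as a knockout of functional domains, and in 1 library at day 0, labelled wild type. Both libraries came from the same iCas9 line grown in DMEM with serum, and time in doxycycline and time in culture differ together between them. Other guides tile SETD1A, SETD1B, KMT2C, KMT2D and BOD1L1 (5760 guides), target the safe harbour locus AAVS1 (5 guides), or target PCNA, POLR2A, POLR2L, RPA3 and SF3B3 (25 guides), genes known to be needed by dividing cells. The series uses the pool to look for functional domains of SETD1A. Total reads were 10255022 at day 14 and 10145466 at day 0. With 1 library per day no difference has a replicate check, so no p-value is given and intervals cover the spread between guides or counting error only.

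In a growth screen, a guide that disables a gene the cells need is lost from the pool. Shares of a library sum to a fixed total, so the share of a guide with no effect also depends on how many other guides are lost. Non-targeting guides match no site in the genome and direct no cut, so they carry the nuclease without a DNA break. Safe harbour guides do cut, but at places chosen because disruption there is tolerated, such as AAVS1, which lies in the gene PPP1R12C. The spread of such controls is commonly used as the range within which a guide is not called a hit.

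The HGLibA guides gained share of the pool. Together they took 562859 reads at day 14, or 5.49% of the library (exact Clopper-Pearson 95% interval 5.47% to 5.50%). At day 0 they took 321421 reads, or 3.17% (3.16% to 3.18%). Single guides ran from 217 to 7864 reads at day 14, with a median of 2485, and from 251 to 4951 reads at day 0, with a median of 1513.5. All 200 therefore passed the minimum of 30 reads at day 0 that was set for a guide to be used, and none was at 0 reads on either day. The guides of other names had medians of 1255 reads at day 14 and 1532 reads at day 0, so the HGLibA guides began at a like depth and ended above it.

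Reads were scaled to 1000000 per library (CPM), 1 was added, and a guide's change was the log2 of the day 14 value over the day 0 value. Before any centring, the median HGLibA guide stood at 0.74 log2 (exact order-statistic 95% interval 0.69 to 0.79), a 1.67-fold gain in share. The summed reads gave a 1.73-fold gain. CPM was higher at day 14 for 190 of the 200 guides, or 95%, against 43.6% of all 5991 guides used. The quartiles of the HGLibA guides were 0.47 and 0.96 log2, the lowest at -1.14 and the highest at 2.43.

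The 3 guides at the centre of the distribution show what the typical control did. HGLibA_64420 had 2357 reads at day 14 and 1391 at day 0. HGLibA_64469 had 2323 reads at day 14 and 1370 at day 0. HGLibA_64508 had 2554 reads at day 14 and 1516 at day 0. All lay within 0.01 log2 of the median, and each gained at least 953 reads between libraries of nearly equal size.

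From here each ratio is given after the HGLibA median was subtracted, so that 0 stands for the typical control and positive values for a larger gain than that. The guides differed far more than read counting allows. Their SD was 0.46 log2, and the MAD (median absolute deviation, scaled to match the SD of a normal distribution) was 0.35 (order-statistic 95% interval 0.31 to 0.44). Counting error alone would give an SD of 0.053 log2, so the observed SD was 8.58 times larger and counting accounted for 1.36% of the variance. Only 45 of the 200 guides lay within 2 of their own counting errors of the median. Within 0.25 log2 of the median were 103 guides, within 0.5 log2 150, and within 1 log2 192.

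The distribution was close to symmetric and had heavier tails than a normal curve, with a skewness of -0.076 and an excess kurtosis of 1.67. By Tukey's fences, drawn 1.5 interquartile ranges beyond the quartiles at -1.01 and 0.96 log2, 3 guides were low and 4 were high. Without these 7 the SD was 0.39 log2.

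HGLibA_64553 was the lowest control, with 338 reads at day 14 and 748 at day 0. Its ratio was -1.88 log2 with a counting error of 0.095, which is 0.272 times the typical control. HGLibA_64539 followed with 554 reads at day 14 and 687 at day 0 (-1.06 log2). The lowest guide thus stood 0.82 log2 apart from the next, and the steps between the low controls after it were smaller. HGLibA_64428, the last beyond the lower fence, had 1314 reads at day 14 and 1618 at day 0 (-1.06 log2).

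HGLibA_64582 was the highest control, with 5840 reads at day 14 and 1063 at day 0. Its ratio was 1.69 log2 with a counting error of 0.048, or 3.23 times the typical control. HGLibA_64425 had 4963 reads at day 14 and 1307 at day 0 (1.16 log2). The other guides beyond the upper fence were HGLibA_64409, with 1741 reads at day 14 and 491 at day 0 (1.05 log2), and HGLibA_64441, with 6995 reads at day 14 and 2059 at day 0 (1.00 log2). The last of these began with more reads than most controls, so a high ratio was not confined to guides with few reads.

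Next to these at the low end stood HGLibA_64568 (-1.01 log2), HGLibA_64436 (-0.96), HGLibA_64577 (-0.85), HGLibA_64483 (-0.81) and HGLibA_64513 (-0.78). At the high end stood HGLibA_64550 (0.89 log2), HGLibA_64552 (0.88), HGLibA_64468 (0.86) and HGLibA_64517 (0.83). HGLibA_64513 had 1739 reads at day 14 and 1761 at day 0, so its raw count was nearly the same on both days although it lay far below the typical control.

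The level of the ratio hardly moved with the number of reads at day 0. Across the 200 guides, which share both libraries and whose day 0 reads also form the ratio's denominator, Pearson's r with log2 day 0 reads was 0.026 and Spearman's rho was 0.021. Of the 50 guides with fewest reads, 25 lay below the HGLibA median (50%, exact 95% interval 35.5% to 64.5%). In groups of 50 guides ordered by day 0 reads the medians were 0.0011, -0.034, 0.048 and -0.016 log2, from fewest to most reads. Reads at day 14 and day 0 went together, with a Pearson's r of 0.86 on the log2 scale.

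The spread was widest among guides with few reads at day 0 and narrowest among those with many. Among the 50 guides with 251 to 1026 reads at day 0 the SD was 0.61 log2, and it was 0.45 for 1030 to 1511 reads, 0.40 for 1516 to 2019 reads and 0.31 for 2028 to 4951 reads. The scaled MAD was 0.64 log2 (interval 0.42 to 0.87) in the first of these groups, 0.34 (0.26 to 0.40) in the second, 0.39 (0.28 to 0.56) in the third and 0.24 (0.16 to 0.37) in the last. The intervals of the first and the last do not overlap, and the groups between did not follow the order of reads by this measure. Counting error fell along with it, at 0.073, 0.052, 0.044 and 0.036 log2. The ratio of the observed SD to the counting SD was 8.33, 8.66, 9.24 and 8.62 in the same order. With the scaled MAD in place of the SD the ratio was 8.68, 6.52, 8.90 and 6.75, so the spread was several times the counting error in every group by either measure.

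The guides at both ends of the day 0 reads illustrate this. HGLibA_64541 had the most, with 7864 reads at day 14 and 4951 at day 0 (-0.091 log2). HGLibA_64400, with 5570 reads at day 14 and 3808 at day 0, lay at -0.21 log2. HGLibA_64505, with 7076 reads at day 14 and 3750 at day 0, lay at 0.16 log2. All of these deep guides stayed within 0.25 log2 of the median. HGLibA_64436 had the fewest, with 217 reads at day 14 and 251 at day 0 (-0.96 log2). HGLibA_64560, with 592 reads at day 14 and 252 at day 0, lay at 0.44 log2. HGLibA_64571, with 655 reads at day 14 and 335 at day 0, lay at 0.19 log2. These shallow guides lay on both sides of the median and spanned a wider range.

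Position in the name numbering showed no trend in level. Groups of 50 consecutive numbers had medians of -0.054, 0.0090, 0.024 and 0.030 log2, and neighbouring numbers had a Pearson's r of -0.091. The last group, 64534 to 64583, held both the lowest and the highest control and had an SD of 0.58 log2, against 0.39 to 0.43 in the other groups. Its scaled MAD was 0.53 log2 (interval 0.31 to 0.64), which overlaps those of the other groups. Its median of 1329.5 reads at day 0 was the lowest of the groups.

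The central 95% of the HGLibA guides, taken here as the control range, ran from -0.86 to 0.88 log2. Whether it suits guides that cut was not tested. In folds of the typical control this is 0.553 to 1.84. By construction it left out 5 guides at each end. HGLibA_64577 and HGLibA_64552 were the last inside it, and HGLibA_64436 and HGLibA_64550 the first outside. With 200 guides the limits themselves were loose. Order-statistic 95% intervals were -1.88 to -0.74 log2 for the lower limit and 0.77 to 1.69 log2 for the upper. A threshold of 2-fold from the typical control was passed by 4 HGLibA guides downward and by 4 upward, each 2% (exact 95% interval 0.548% to 5.04%). Over all guides used, 46.7% passed it downward and 0.351% upward.

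The range was narrower for deeply counted controls. Within the groups of 50 by day 0 reads the central 95% ran from -1.04 to 0.89 log2 for the fewest reads, from -0.68 to 1.04 and from -0.77 to 0.72 for the groups between, and from -0.65 to 0.52 log2 for the most reads. The single range of -0.86 to 0.88 log2 is thus wide on both sides for the deepest group. For the shallowest group it is narrow at the low end and nearly the same at the high end. The 95% interval of the single lower limit, -1.88 to -0.74 log2, covers the lower limit of the shallowest group.

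Set against this range, 3126 of 5791 guides of other names lay below it and 30 above it. The shares over all guides used were 52.3% below and 0.584% above, against 2.50% of the HGLibA guides on each side by the definition of the range. The HGLibA median lay above 86.2% of all guides used and above 87.4% of the guides of other names, and 1145 of them lay lower than the lowest HGLibA guide. Only KMT2C_8174 lay above the highest HGLibA guide, with 1265 reads at day 14 and 207 at day 0 (1.80 log2). KMT2C_13153 followed with 230 reads at day 14 and 37 at day 0 (1.59 log2). Next came KMT2C_14250 with 2296 reads at day 14 and 521 at day 0 (1.36 log2). KMT2C_8174 and KMT2C_13153 had fewer day 0 reads than any HGLibA guide (251 or more), so no control was as shallow. The high end of the pool was thus held almost entirely within the spread of the controls, and the low end was not.

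These counts depended on where 0 was placed. With the same range placed around 0 of the uncentred ratio, 1594 guides lay below and 478 above it. Placed around the median of all guides, it left 1301 below and 798 above.

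Guides against essential genes separated from the controls. The 25 guides had a median of -3.63 log2 (order-statistic 95% interval -4.03 to -2.90), and 24 of them lay below the HGLibA range. Medians of the 5 guides per gene were -2.90 log2 for RPA3, a subunit of the single-strand DNA binding complex, -3.01 for POLR2A, the largest subunit of RNA polymerase II, -3.58 for the splicing factor SF3B3, -4.03 for PCNA, the sliding clamp of DNA replication, and -4.39 for POLR2L, a small polymerase subunit. In 99.2% of all pairs of 1 HGLibA guide and 1 essential gene guide, the HGLibA guide had the higher ratio. The 1 guide within the range, named after its value was seen, was RPA3_196 at -0.41 log2. Among the guides used, 0 reads were counted at day 14 for 3 essential gene guides and for 15 guides of the tiled genes, but for no HGLibA guide. The 3 lowest ratios of the pool were among these, POLR2A_3145 with 1503 reads at day 0, POLR2L_26 with 1035 and KMT2C_2655 with 594, an order set by their day 0 reads and the pseudocount alone. The essential gene guides at 0 reads were the lowest of the 25, so the median of -3.63 log2 does not depend on their values.

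Of the 5 AAVS1 guides, 4 lay below the HGLibA median (80%, exact 95% interval 28.4% to 99.5%) and 3 lay below the range. Over all guides used, 86.2% lay below the HGLibA median and 52.3% below the range. The AAVS1 values are given singly because there are few, a choice made after they were seen. They lay at -1.46, -0.74, 0.18, -1.30 and -1.01 log2, with a median of -1.01, against -0.92 for all guides used. AAVS1_3 was the only one above the typical control, with 6461 reads at day 14 and 3378 at day 0. Their day 0 reads ran from 998 to 3378, with a median of 1183, and the lowest of them, AAVS1_1, had 1263 reads at day 14 and 2061 at day 0. With 5 guides at 1 locus, these values do not stand for safe harbour guides in general.

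To give a scale for medians of 5 guides, the HGLibA guides were taken in 40 blocks of 5 consecutive numbers. The block medians ran from -0.46 to 0.41 log2, with an SD of 0.19. The AAVS1 median of -1.01 log2 and those of all 5 essential genes fell below that span. This is a description of these libraries. Whether HGLibA or AAVS1 guides better mark no growth effect was not tested.

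Every tiled gene had a median below the controls. Over all guides used, most of them tiled, the median was -0.92 log2. Of all these guides 86.2% lay under the HGLibA median and 52.3% below the range. SETD1B, a histone methyltransferase and paralog of SETD1A, came closest to the controls, at -0.25 log2 (interval -0.28 to -0.21). Of its 744 guides 73.5% lay under the HGLibA median and 11.7% below the range. BOD1L1, a protein that guards stalled replication forks, stood at -0.64 log2 (-0.72 to -0.56), with 40.5% of 618 guides below the range. KMT2C, a methyltransferase that acts at enhancers, stood at -0.84 log2 (-0.88 to -0.79), with 49.2% of 1331 guides below the range. SETD1A stood at -1.23 log2 (-1.33 to -1.14), with 64.2% of 628 guides below the range. KMT2D, the closest relative of KMT2C, stood at -1.43 log2 (-1.49 to -1.38), with 69.9% of 2435 guides below the range. SETD1B, BOD1L1 and KMT2C thus had smaller shares below the range than all guides used, and SETD1A and KMT2D larger ones. The SETD1A and KMT2D medians lay under that of the AAVS1 guides, and those of the other tiled genes lay above it.

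Using the range of HGLibA guides from the same group of 50 by day 0 reads, an alternative chosen after seeing the data, placed 121 SETD1B guides below, against 87 with the single range, the largest change in proportion among the tiled genes. For the other tiled genes the counts were 419 against 403 for SETD1A, 671 against 655 for KMT2C, 1786 against 1703 for KMT2D and 246 against 250 for BOD1L1. Over all 5991 guides used, 3279 lay below the group ranges, against 3131 with the single range. The group ranges left out 8 HGLibA guides on each side, against 5. Above them lay 8 SETD1B guides, against 2.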

How the data were processed

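Guides were counted in 2 libraries of iCas9 KPL-1 cells, at day 14 and day 0. The authors deposited unscaled counts of reads for each guide, and the sources used here do not say how guides were amplified or counted. The tools in the submitters' processing notes carry no role for this table. Its row of column totals equalled the sum of all guides (its share is the whole of the reads) and was left out. KMT2F and KMT2G were read as SETD1A and SETD1B through RefSeq synonyms.

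Reads were scaled to CPM on library totals and a pseudocount of 1 CPM was added. Guides with at least 30 reads at day 0 were kept (5991), and 4 were dropped. The counting error of a log2 ratio is the square root of the summed inverse reads, over the natural log of 2. Reads carry no molecular identifiers, so counting errors, and intervals of shares of reads, cover counting error only. Intervals of medians, limits and shares of guides are exact 95% intervals over guides and cover the spread between guides. The scripts were tested on simulated data.

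Members, lists and settings were chosen with earlier results of these data known. Named HGLibA guides were the 8 highest, 8 lowest, 3 with most and 3 with fewest reads, 3 nearest the median, those outside the fences and those at the range limits; of the others, the 3 highest and 3 lowest. AAVS1 guides were kept apart from the essential gene guides after their names were seen; with them the median was -3.25 log2 in place of -3.63. The guides of 1 further target stay in the counts over all guides and are not reported here by name, so the essential gene set was not used exactly as first defined. Alternatives changed the pseudocount, filter, scaling, centring, limits and members, and the summing of the 376 rows that share a name. Python 3.11.15, scipy 1.17.1, R 4.3.3 and edgeR 4.0.16 (TMM factors only) were used.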

Additional observations from a re-analysis of the deposited data

How the results depend on the processing

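Of 100 alternatives tried over 9 results, 82 stayed within the result's interval or, for counts, within 1.5 times. Some of the 82 could not move. Every HGLibA guide had at least 251 reads at day 0 and none shared a name. Dropping the filter, asking for 200 reads at day 0 and summing shared names therefore left all values of the HGLibA guides unchanged. The uncentred median of the HGLibA guides was 0.89 log2 with TMM scaling and 0.91 with median-ratio size factors, against 0.74. Measured as an SD, the spread was 0.46 log2. The limits of the range were -0.69 and 0.69 log2 as 2 scaled MADs around the median. Restated with 0 at the median of all guides, the limits of the central 95% were 0.061 and 1.80 log2, so that the lower limit changed sign. Not centred, the limits were -0.11 and 1.62 log2. The upper one is among the 82 only because the interval of the upper limit reaches 1.69 log2. The counts did not use these restated limits but the range of -0.86 to 0.88 log2 placed around other centres. Guides of other names below it then numbered 1301 (all guides) and 1594 (not centred), against 3126. Those above it numbered 798 and 478 in the same order, 54 with 2 scaled MADs, 46 with the central 90% and 18 with at least 500 reads at day 0, against 30. The essential gene median was -2.71 log2 centred on all guides and -2.88 not centred. Among the 100 guides with the higher name numbers, 2 lay outside fences redrawn from those guides alone, against 7 of all 200 outside the main fences. The cause of these moves was not tested beyond what each centre or limit sets by construction. No paired analysis was possible because each day has 1 library and no result comes from a test.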
